A study of Mus musculus with 2 samples.

Results

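The Notch signalling genes described here are 4 receptors (Notch1, Notch2, Notch3 and Notch4), 3 ligands (Jag1, Jag2 and Dll4) and 3 transcriptional targets (Hes1, Hey1 and Hey2). They were taken as every probe set whose only annotated gene symbol was one of these names, which gave 19 probe sets for 10 genes, out of 34945 single-symbol probe sets for 18193 genes. RNA was measured in whole ovaries of progesterone receptor (PR) knockout mice and of wild-type mice on a C57BL/6 background, with 1 Affymetrix Mouse Genome array for each genotype. Mice of both genotypes were 24 to 28 days old and received 5 IU of pregnant mare serum gonadotropin, which drives follicle growth, then 5 IU of human chorionic gonadotropin (hCG) 48 h later to trigger ovulation, and ovaries were collected 11 h after hCG. The allele that removes the receptor, and the number of mice behind each RNA sample, are not given in the sources used here. With 1 array for each genotype there was no replicate, no difference could be tested against the spread between animals, and no p-value is given.

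Notch receptors are membrane proteins that are activated by ligands on a neighbouring cell. Ligand binding exposes the receptor to cleavage by an ADAM protease and then by gamma-secretase, and the freed intracellular domain enters the nucleus, where it joins the DNA-binding protein RBPJ and Mastermind coactivators to switch on targets such as the HES and HEY repressors. In the mouse ovary, JAG1 on the oocyte and NOTCH2 on granulosa cells form a known signalling pair of follicle assembly and growth, while DLL4, NOTCH1 and NOTCH4 are known for their roles in endothelial cells and NOTCH3 for its role in the mural cells of vessels.

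The deposited values are linear signals, scaled by the authors so that each array has the same trimmed mean. A signal was called measurable at or above its array's median over probe sets other than controls, 37.95 on the PR knockout and 36.25 on the wild-type array. Lower signals were set to this floor, which turns any fold measured from them into a lower bound. Each gene was represented by its brightest probe set, and 11316 genes were measured. Between probe sets of the same gene, the log2 difference between the arrays had an SD of 0.25 (4771 genes), or 0.29 over the 1234 of them whose probe sets all had mean signals under 200. This SD covers probes and transcript forms and leaves out the spread between animals. Pgr, the targeted gene, gave 42.8 on the PR knockout and 36.5 on the wild-type array with its brightest probe set, both close to the floor, and its other 2 probe sets were under the floor on both arrays, so these arrays do not check the genotype labels.

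The 10 Notch genes differed little between the PR knockout and the wild-type ovary, as did most measured genes. All 10 were measured, and their log2 differences (PR knockout minus wild type) lay between -0.32 for Notch2 and 0.43 for Jag2. None reached 1.5-fold: 0 of 10 were at least 1.5-fold higher in the knockout, where 6.54% of all measured genes were, and 0 of 10 were at least 1.5-fold lower, where 4.75% were. In all, 740 measured genes were at least 1.5-fold higher and 538 lower, a split that turned to 517 and 672 once the trend of the difference with signal was removed by loess. The median log2 difference of the members was 0.07, beside 0.06 over all measured genes, whose quartiles were -0.14 and 0.27. Of the 10 genes, 6 had the higher signal in the knockout and 4 in the wild type. At 2-fold the counts were also 0 of 10 in both directions, beside 1.15% of all measured genes higher and 1.72% lower. With only 10 members, counts of 0 lie near the shares over all genes and do not set the members apart. By brightest probe set, the share of measured genes with a smaller difference in either direction ran from 7.83% for Hey1 to 79.0% for Jag2. Against the SD of 0.25 between probe sets of a gene, 5 of the 10 genes had a difference smaller than 1 SD and 0 lay beyond 2 SDs. The first count depends on the SD used: Dll4, at -0.26, lay outside 0.25 but within the 0.29 of the genes with mean signals under 200.

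**Figure D1:**
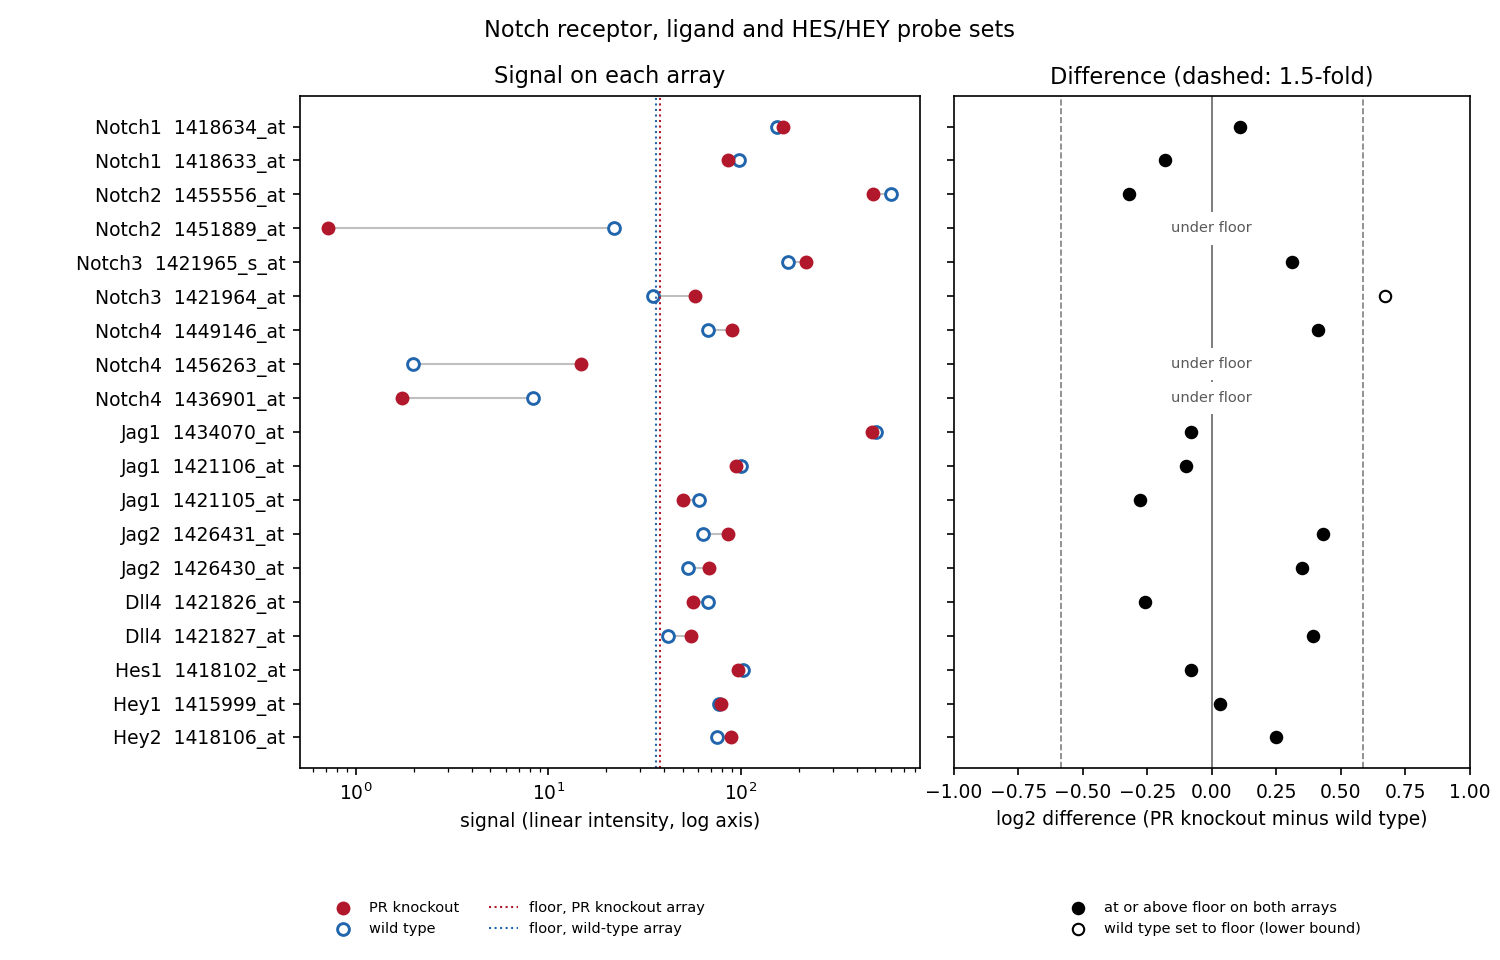
Signal of each of the 19 Notch probe sets on the PR knockout (filled) and wild-type (open) array on a log axis (left), and the log2 difference for those measurable on at least 1 array (right). Most pairs of points nearly coincide, the dim Notch3 probe set 1421964_at alone passes the 1.5-fold line, and 3 probe sets lie under the floor on both arrays.

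Among the receptors, the brightest probe set of Notch2, which encodes a receptor of granulosa cells, had a signal of 485 in the PR knockout and 605 in the wild-type ovary. This was 1.25-fold lower in the knockout, the lowest difference of the 10 genes, and 67.5% of all measured genes had a smaller difference in either direction. The other Notch2 probe set gave 0.718 in the PR knockout and 21.8 in the wild type, under the floor on both arrays, and carries no measurable difference. Notch1, a receptor of endothelial and many other cells, had 166 in the knockout and 154 in the wild type with 1418634_at, and 85.5 in the knockout and 97.2 in the wild type with 1418633_at. The probe sets of Notch1 thus pointed in opposite directions, at 0.11 and -0.18 on the log2 scale, and both values lie within the within-gene SD.

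Notch3, the receptor of pericytes and vascular smooth muscle, had the higher signal in the knockout with both probe sets. The brighter, 1421965_s_at, gave 219 in the PR knockout and 176 in the wild-type ovary, 1.24-fold higher. The dimmer, 1421964_at, gave 57.8 in the knockout and 35.1 in the wild type, where it fell under the floor, so that the knockout was at least 1.60-fold higher. It was the only one of 16 measured Notch probe sets at or past 1.5-fold, and 6.63% of all measured single-symbol probe sets were at least 1.5-fold higher. In the other direction it was 0 of 16, beside 4.98% of all. Since the brighter probe set is of a type that can match several transcripts, leaving such probe sets out made Notch3 the 1 member past 1.5-fold, at 0.67 on the log2 scale. Notch4, an endothelial receptor, had a signal of 90.3 in the knockout and 67.8 in the wild type, 1.33-fold higher. Its other 2 probe sets were under the floor on both arrays, and their raw signals differed in opposite directions (14.7 in the knockout and 1.98 in the wild type for 1456263_at, 1.73 in the knockout and 8.31 in the wild type for 1436901_at).

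Of the ligands, Jag1 was the most fully measured, with 3 probe sets above the floor on both arrays. They gave 477 in the PR knockout and 505 in the wild type, 93.9 in the knockout and 100.4 in the wild type, and, for the dimmest, 49.9 in the knockout and 60.7 in the wild type. All 3 were slightly lower in the knockout, by 1.06-fold, 1.07-fold and 1.22-fold from the brightest to the dimmest. Jag2, a second Jagged ligand, had the highest difference of the 10 genes. Its probe sets gave 85.2 in the knockout and 63.2 in the wild type, 1.35-fold higher, and 68.1 in the knockout and 53.4 in the wild type, 1.28-fold higher. The log2 difference of 0.43 in the brighter Jag2 probe set was larger than that of 79.0% of all measured genes in either direction. Dll4, the ligand of endothelial tip cells, could not be assigned a direction: one probe set gave 56.5 in the knockout and 67.5 in the wild type, the other 55.1 in the knockout and 42.0 in the wild type. These log2 differences were -0.26 and 0.39, and none of the signals was above 1.86 times the floor.

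The targets of the pathway were close to equal on the arrays. Hes1, a basic helix-loop-helix repressor and a direct target of activated Notch, had 96.8 in the PR knockout and 102 in the wild-type ovary, 1.06-fold lower. Hey1, a repressor of the related HEY family, had 78.8 in the knockout and 77.2 in the wild type, 1.02-fold higher, and this sign turned under all 3 rescalings of the arrays. Hey2, the HEY gene best known from arteries and heart, had 88.9 in the knockout and 74.7 in the wild type, 1.19-fold higher. Each of these genes has a single probe set, with signals between 2.06 and 2.82 times the floor, so there is no second reading of the direction.

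**Figure D2:**
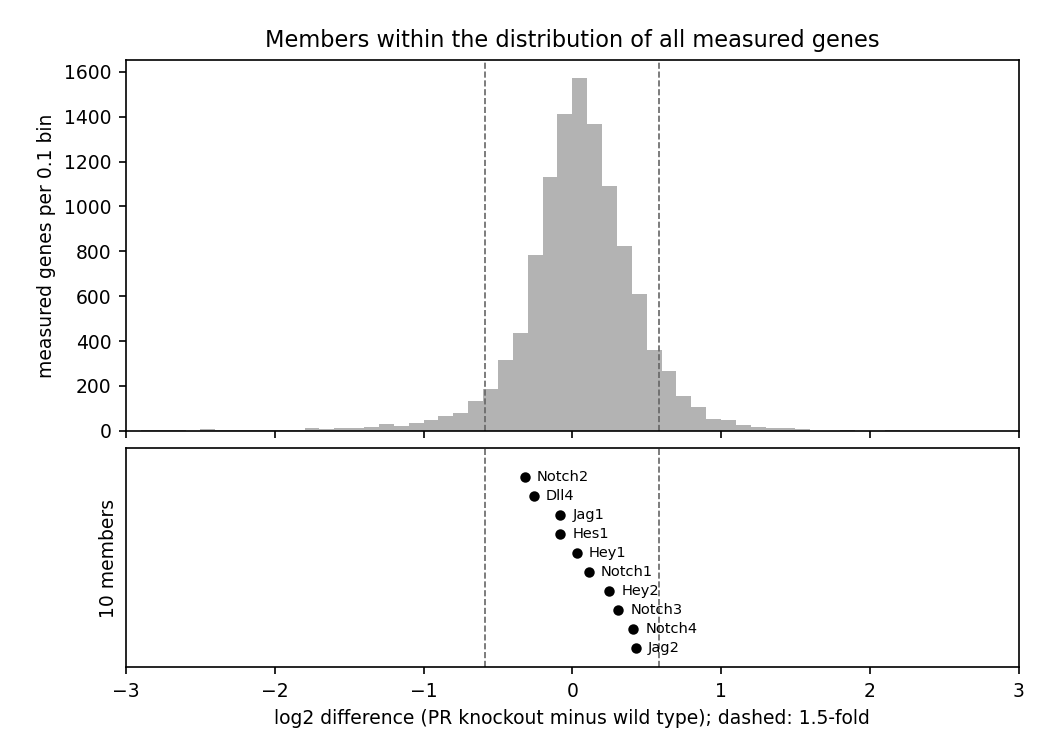
Number of measured genes in each 0.1 bin of log2 difference, PR knockout minus wild type (top), with the 10 Notch genes by their brightest probe set below. The members lie between -0.32 and 0.43, a range that holds 75.2% of all measured genes, and 9 genes fall outside the axis.

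Agreement between probe sets of a gene varied. Of the 5 members with at least 2 measured probe sets, Jag1, Jag2 and Notch3 moved the same way in all of theirs, and Notch1 and Dll4 did not. Over the 16 measured Notch probe sets, 9 had the higher signal in the knockout and 7 in the wild type. By role, the medians of the log2 differences were 0.21 for the 4 receptors, -0.08 for the 3 ligands and 0.03 for the 3 targets.

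Promoters are shown for the target Hey2 and for the genes at both ends of the range, Notch2 and Jag2. RefSeq promoter sequences (GRCm38.p6, 250 bases before to 50 after the annotated start) were matched by symbol for 8 of the 10 genes, all except Hes1 and Hey1. Capitals mark TGGGAA or its reverse complement TTCCCA, the core of the RBPJ recognition sequence, searched on both strands. Hey2 lies at chr10:30842734-30843033 on the minus strand, Notch2 at chr3:98013288-98013587 on the plus strand and Jag2 at chr12:112929446-112929745 on the minus strand.
Hey2: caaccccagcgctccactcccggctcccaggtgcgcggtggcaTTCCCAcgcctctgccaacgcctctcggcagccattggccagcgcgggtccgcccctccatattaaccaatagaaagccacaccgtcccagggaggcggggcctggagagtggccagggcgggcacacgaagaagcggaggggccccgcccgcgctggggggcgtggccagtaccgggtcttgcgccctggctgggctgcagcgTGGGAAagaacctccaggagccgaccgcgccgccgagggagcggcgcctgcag
Notch2: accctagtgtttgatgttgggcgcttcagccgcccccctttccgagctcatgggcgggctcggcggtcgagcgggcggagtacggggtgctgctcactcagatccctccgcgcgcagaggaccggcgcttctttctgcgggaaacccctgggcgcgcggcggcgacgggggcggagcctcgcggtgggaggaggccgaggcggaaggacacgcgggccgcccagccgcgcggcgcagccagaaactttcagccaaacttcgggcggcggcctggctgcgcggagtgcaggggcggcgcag
Jag2: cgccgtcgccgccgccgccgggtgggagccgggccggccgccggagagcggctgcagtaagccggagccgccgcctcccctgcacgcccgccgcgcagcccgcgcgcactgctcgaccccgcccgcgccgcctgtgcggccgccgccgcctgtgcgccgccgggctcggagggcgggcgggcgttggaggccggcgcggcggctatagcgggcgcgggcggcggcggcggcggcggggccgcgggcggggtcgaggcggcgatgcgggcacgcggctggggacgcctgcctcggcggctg
The Hey2 window held the core 2 times, on the strand opposite to the gene at positions -207 to -202 and on the strand of the gene from -3 to 3, counted from the annotated start with no position 0. None of the other 7 member promoters held it. Of 32851 mouse promoters of this length, 25.6% held it at least once and 3.79% at least 2 times. The hexamer AGAACA or its reverse complement TGTTCT, an arm of the palindrome that PR and other steroid receptors recognise, was in 0 of the 8 member promoters and in 19.0% of all promoters. The member promoters had from 55.7% (Jag1) to 86% (Jag2) G and C, above the median of 52.7% over all promoters. The shares over all promoters thus come from windows of unlike base content, and no correction was made for it. These matches describe letters in a short window and were not tested as binding sites.

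Further genes of the pathway were taken from a list of other pathway members, of which 48 were analysed here and 42 were measured. Of these, 21 had the higher signal in the knockout and 21 in the wild type, and the median log2 difference was -0.02, with values from -0.63 to 1.11. At least 1.5-fold higher in the PR knockout were 3 of 42, against 6.54% of all measured genes, and 1 of 42 was at least 1.5-fold lower, against 4.75%, so both counts lay near the shares over all genes. Of the others, Dlk1, Dner, Neurl1a, Maml2, Hes5 and Hes7 were under the floor on both arrays.

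The largest difference in this list was in Dtx4, which encodes a Deltex-family ubiquitin ligase. Its brighter probe set gave 472 in the PR knockout and 218 in the wild-type ovary, 2.16-fold higher, and the dimmer gave 83.1 in the knockout and 54.5 in the wild type, 1.52-fold higher. Both readings of Dtx4 therefore lay past 1.5-fold in the same direction. It was the 1 gene of the list at least 2-fold apart. Tle2, a Groucho-family corepressor of the kind that HES and HEY proteins recruit, had 366 in the knockout and 204 in the wild type, 1.80-fold higher. Its single probe set, 1436244_a_at, is of a type that can match several transcripts, so Tle2 has no value once such probe sets are left out. The corepressor genes did not share this direction: of 7 measured, 2 had the higher signal in the knockout and 5 in the wild type, with a median log2 difference of -0.21 and a range from -0.49 to 0.85. Poglut1, which adds glucose to the EGF repeats of Notch receptors, had 339 in the knockout and 224 in the wild type, 1.51-fold higher, and was under 1.5-fold in all 3 rescalings.

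Numbl, a relative of the Notch antagonist Numb, was the gene with the lowest difference: 63.7 in the PR knockout and 98.8 in the wild type, 1.55-fold lower, from a single dim probe set. Of the nuclear complex, the acetyltransferase gene Ep300 had 381 in the knockout and 549.5 in the wild type, 1.44-fold lower. The coactivator gene Maml1 had 327 in the knockout and 475 in the wild type with its brightest probe set, 1.45-fold lower, but 182 in the knockout and 165 in the wild type with another, 1.11-fold higher, so its direction depends on the probe set. Of the 5 measured genes of the nuclear complex, 2 had the higher signal in the knockout and 3 in the wild type, with a median of -0.09. Of the 8 measured genes of receptor cleavage, which include the ADAM proteases and gamma-secretase subunits, 3 had the higher signal in the knockout and 5 in the wild type, with log2 differences from -0.19 to 0.33. The 3 measured genes of ligand endocytosis lay between -0.31 and -0.05. Among 5 genes for glycosylation of the receptors, 4 had the higher signal in the knockout, with log2 differences from -0.13 to 0.60. Of 8 regulators of the receptors, 6 had the higher signal in the knockout, with a median of 0.07. The 3 measured ligands of this list lay between -0.50 and 0.54, and both of these ends are bounds set by a floor.

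A further 3 genes of the list, from the HES and HEY families and from feedback on Notch, were measured with several probe sets each. They were named after their values were seen. Heyl, a HEY-family gene of vascular smooth muscle, was 1.01-fold higher in the PR knockout with its brightest probe set. Its other probe sets gave 188 in the knockout and 177 in the wild type, and, for the dimmest, 93.8 in the knockout and 91.5 in the wild type. All 3 readings of Heyl lay within 1.06-fold of equality. Nrarp, a feedback inhibitor induced by Notch, had 169.6 in the knockout and 147 in the wild type, 1.15-fold higher, and its dimmer probe set gave 1.31-fold higher. Hes6, a HES-family gene, was 1.09-fold higher with its brighter probe set and 1.18-fold higher with the other.

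**Figure D3:**
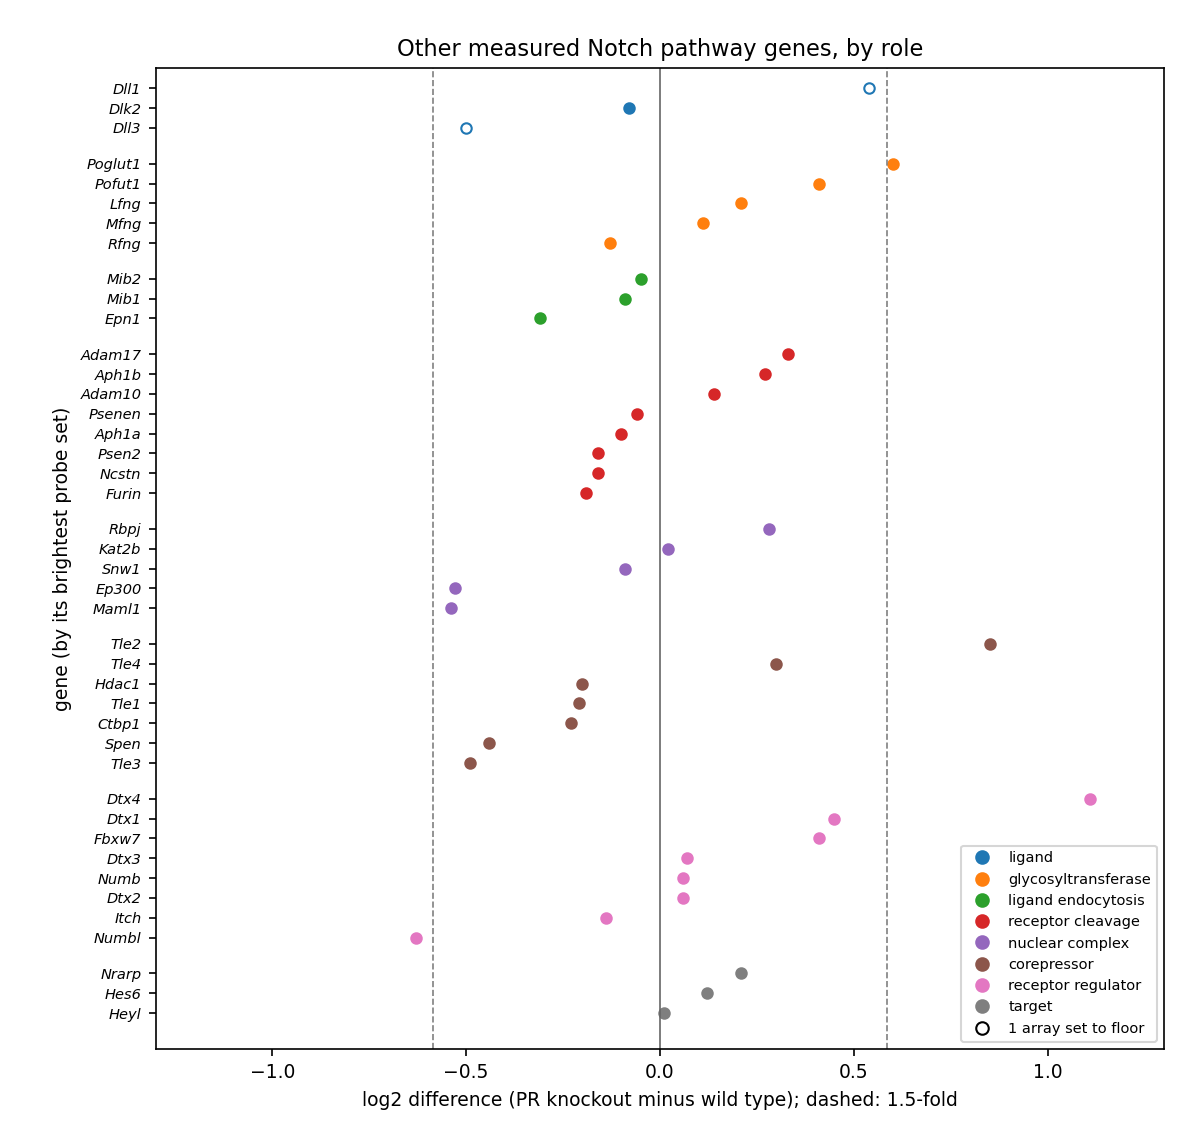
Log2 difference (PR knockout minus wild type) of the 42 measured genes of the wider Notch pathway, each by its brightest probe set, grouped by role. Dtx4, Tle2 and Poglut1 lie past the 1.5-fold line on the knockout side and Numbl on the wild-type side.

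Because the samples were whole ovaries, fewer cells of a type and less RNA per cell cannot be told apart, and markers of the cells that use Notch were read beside the members. The shares of all measured genes at least 1.5-fold apart, 6.54% higher and 4.75% lower, are the background for the counts of these lists. Of 16 endothelial markers, all measured, 11 had the higher signal in the knockout, 2 of them at least 1.5-fold, with a median log2 difference of 0.25 and a summed signal of 4091 in the PR knockout and 3676 in the wild type. The 2 past 1.5-fold, named after their values were seen, were Tie1 at 1.94-fold and Vwf at 1.51-fold or more, which lay under the floor in the wild type. The brightest of the list, Eng and Sox18, were 1.02-fold higher and 1.07-fold lower. Pericyte and smooth muscle markers had a median of 0.01 over 11 genes, 2 of them at least 1.5-fold lower, and summed to 12325 in the knockout and 12678 in the wild type. Acta2 was 1.01-fold higher and Tagln 1.18-fold lower, while the 2 past 1.5-fold, also named after their values were seen, were Kcnj8 at 1.89-fold and Mcam at 1.54-fold lower. Granulosa markers stood higher in the knockout: 9 of 10 measured (of 11 listed) were higher, 6 at least 1.5-fold, with a median of 0.62. Their sums were 18379 in the knockout and 15821 in the wild type. However, the brightest, Inha and Nr5a2, were 1.04-fold lower and 1.07-fold higher. Other Nr5a2 probe sets went the other way, 1.31-fold lower for 1456521_at and 1.39-fold lower for 1449706_s_at, so its direction depends on the probe set. The part of these shifts in the Notch signals was not tested.

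The remaining marker lists describe the rest of the tissue. Theca and luteal markers had a median of -0.06 (6 measured of 8, sums of 35783 in the PR knockout and 37899 in the wild type). Of these, 2 were higher in the knockout and 4 lower. Hsd3b1 was 1.08-fold higher, Cyp11a1 1.09-fold lower and Cyp17a1 1.38-fold lower. Star was 1.47-fold lower with its brightest probe set and 1.56-fold and 1.6-fold lower with its others. Stroma markers had a median of 0.21 (7 of 7, sums of 11829 in the knockout and 9581 in the wild type). Of these, 6 were higher in the knockout, 2 of them at least 1.5-fold, beside 6.54% of all measured genes, and 1 was lower. Col1a2 was 1.05-fold, Col1a1 1.14-fold, Lum 1.79-fold and Tcf21 2.76-fold higher, and Pdgfra was 1.33-fold lower. Oocyte markers had a median of 0.14 (10 of 10, sums of 3220 in the knockout and 2894 in the wild type). Of these, 9 were higher in the knockout and 1 lower. Gdf9 was 1.11-fold higher, and Oosp1 was at 440.2 in the knockout and 438 in the wild type. Leukocyte markers had a median of -0.03 (5 of 10, sums of 869 in the knockout and 776 in the wild type, Csf1r 1.37-fold higher, Lyz2 1.02-fold lower), and Itgam, Cd3e, S100a8 and S100a9 were under the floor. All 3 oviduct markers were under the floor on both arrays, as were Adipoq and Cidec of the fat list, while Fabp4, which endothelial cells also express, had 70.9 in the knockout and 335 in the wild type, 4.72-fold lower.

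**Figure D4:**
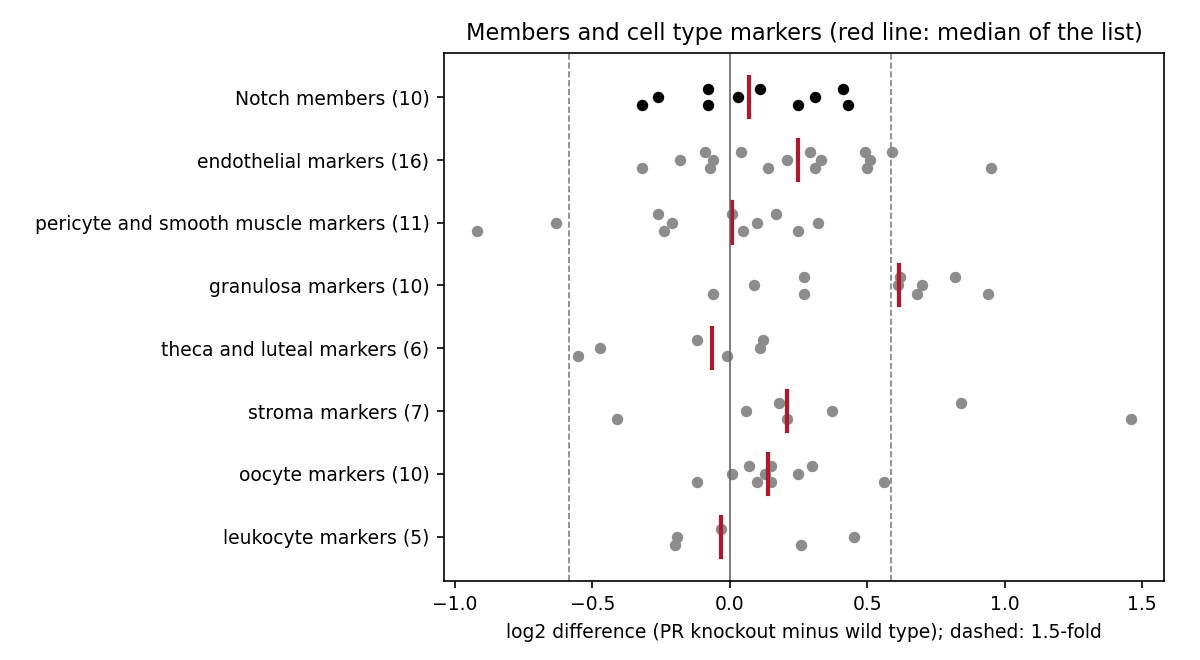
Log2 difference (PR knockout minus wild type) of the 10 Notch genes and of the measured genes of 7 marker lists, with the median of each list as a red line and the number of genes in parentheses. The Notch genes centre at 0.07, beside 0.06 over all measured genes. The medians of the marker lists run from -0.06 for the theca and luteal markers to 0.62 for the granulosa markers.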

How the data were processed

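Each sample is 1 array of total ovarian RNA, labelled from 100 ng with a kit that primes at the 3′ end, per the labels' protocols. The deposited values are linear intensities, 1 for each of 45101 probe sets and array, computed by the authors with MAS5 in Affymetrix Expression Console version 1, per the submitters' processing notes. The mean after trimming 2% at each end was 150 on both arrays. MAS5 makes the lowest signals noisy, and no detection calls were used here. From these, 64 control probe sets were left out, signals under each array's median were set to it, and log2 differences were taken for single-symbol probe sets and, for genes, for the brightest one by mean log2 signal (pandas 2.3.3, statsmodels 0.14.6 for loess). With 1 array for each genotype no test was run, and the number of arrays limits precision. The steps were tested on simulated data, with changes of at least 2-fold put into brighter genes only. That test does not cover dim genes or differences as small as those of the members. The members and lists were chosen with earlier results of these data known. Genes named were the members, Pgr, the 3 largest differences in each direction and any past 1.5-fold of the pathway list, and the 2 brightest and any past 2-fold of each marker list. Heyl, Nrarp, Hes6, Tie1, Vwf, Kcnj8, Mcam, Lum, Pdgfra, Star and Cyp17a1 lie outside this rule and were named after their values were seen. The alternatives were 3 rescalings, other floors, an offset, other choices of probe set and a 2-fold threshold.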

Additional observations from a re-analysis of the deposited data

How the results depend on the processing

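No paired analysis was possible because each genotype has 1 array, and for the same reason no replicate could be left out. The count of members at least 1.5-fold higher in the PR knockout was 0 under every alternative except one. Leaving out multiply matching probe sets (suffixes _s_at, _x_at and _a_at) made it 1, Notch3 at 0.67, read from a probe set that was under the wild-type floor. The count of members at least 1.5-fold lower was 0 under all of them. The median of the members ran from -0.04 without the loess trend to 0.07, so its sign depends on scaling, and with the 70th-percentile floor 4 of the 10 members were measured. Of 74 values of single members under the alternatives, 72 moved by less than the within-gene SD. The exceptions were Notch3 above and Dll4, which was 0.07 with the mean over its probe sets. Notch1 was -0.04 with that mean, and Hey1 lay between -0.09 and -0.02 under the rescalings. In the pathway list Maml1 was -0.20 with the mean over probe sets and 0.15 without multiply matching probe sets, and Numbl was -0.45 with the offset. Genes of this list at least 1.5-fold higher and lower numbered 3 and 1, against 2 and 2 after median centring, 3 and 0 with the higher floor and 7 and 2 without a floor. Over all genes, 740 were at least 1.5-fold higher and 538 lower, against 591 and 637 after median centring, 567 and 613 after quantile normalization, 517 and 672 without the loess trend, 265 and 322 with the higher floor, 2720 and 2979 without a floor and 467 and 487 with the offset. The cause of these shifts was not tested. Of the members, 6 had signals under 100 on at least 1 array, and every member's difference by its brightest probe set was under 2 within-gene SDs.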
